A study of Rattus norvegicus with 3 samples.

Results

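The genes described here are 45 antioxidant and Nrf2 defence genes of the rat, listed by function: superoxide dismutases, catalase and glutathione peroxidases, peroxiredoxins, the thioredoxin and glutaredoxin system, methionine sulfoxide reductases, metallothioneins, the heme oxygenase pathway, Nrf2 with its regulators and targets, and enzymes that supply NADPH. All 45 were represented among the 14218 genes with a probe set of a single symbol, by 57 of 20832 such probe sets. RNA came from primary fetal cardiomyocytes of Wistar rats, which are outbred. After 48 hours on the plate the cells spent 24 hours in fresh culture medium (the control), in skeletal myoblast-conditioned medium or in cardiac fibroblast-conditioned medium. Conditioned medium holds what the donor cells released and lacks what they used up. Each medium was represented by 1 Affymetrix array, and the cultures were primary isolates, so the 3 arrays give differences between single cultures with no standard error and no p-value. The number of arrays limits the precision.

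Superoxide dismutases turn superoxide into hydrogen peroxide, which catalase, glutathione peroxidases and peroxiredoxins reduce to water. The thioredoxin and glutathione systems regenerate these enzymes with electrons from NADPH. Nrf2, encoded by Nfe2l2, is a transcription factor held in the cytoplasm and marked for degradation by Keap1, and oxidants or electrophiles that modify Keap1 release it to antioxidant response elements in the promoters of its target genes. In the heart these enzymes are known for limiting damage by oxidants during reperfusion, and the study asks how myoblast-released factors protect cardiomyocytes from oxidative stress.

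The deposited values are log2 values centred, for each probe set, on the median of the 3 arrays, so each array is higher than, lower than or at the middle array, which is at 0. Levels of different genes therefore cannot be compared, only differences of 1 gene between arrays, and a log2 difference of 1 is a 2-fold difference. The labelled cell type could not be checked for the same reason: the centred values of cardiomyocyte genes do not say how abundant they were. In bulk RNA, fewer cells of a type and less RNA per cell cannot be told apart. Blank cells were read as 0, so a difference of 0.00 can mean that neither array had a value. Added control transcripts, with 42 probe sets, differed by up to 0.66 in size between myoblast and fresh medium, 0.68 between fibroblast and fresh medium and 1.02 between the conditioned media. They were on average 0.25 higher on the myoblast array than on the control array and 0.22 higher than on the fibroblast array, while the median difference of all genes was 0.00 in each comparison. Scaled to the added controls, the median of all genes would become -0.25 for myoblast minus fresh medium and -0.22 for myoblast minus fibroblast medium.

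Against fresh medium, each conditioned medium had 6 of the 45 genes at or above a 2-fold increase and 0 at or below a 2-fold decrease, but only Mt2A and Steap1 were on both lists. In myoblast medium they were Steap1, Nqo1, Mt2A, Mt1, Srxn1 and Hmox1. The 6 genes are 13.3% of the 45, where 1.35% of all genes were that much higher and 0.844% that much lower. In fibroblast medium they were Sod3, Sod2, Gpx3, Mt2A, Steap1 and Me1, again 13.3%, where 4.26% of all genes were that much higher and 2.60% that much lower. The median difference of the 45 genes was 0.06 for myoblast and 0.22 for fibroblast medium, and the upper quartile of all genes was 0.09 and 0.17. In fibroblast medium 28 of the 45 genes were above 0 and 14 below, against 5824 above and 6133 below of all 14218 genes. In myoblast medium 23 of the 45 were above 0 and 17 below, against 5546 and 5719 of all genes. Differences larger in size than any of the added controls were found for 9 of the 45 genes in myoblast medium (5.47% of all genes) and for 11 in fibroblast medium (12.8% of all genes). These comparisons share the control array, so a low or high value on that array enters both.

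**Figure D1:**
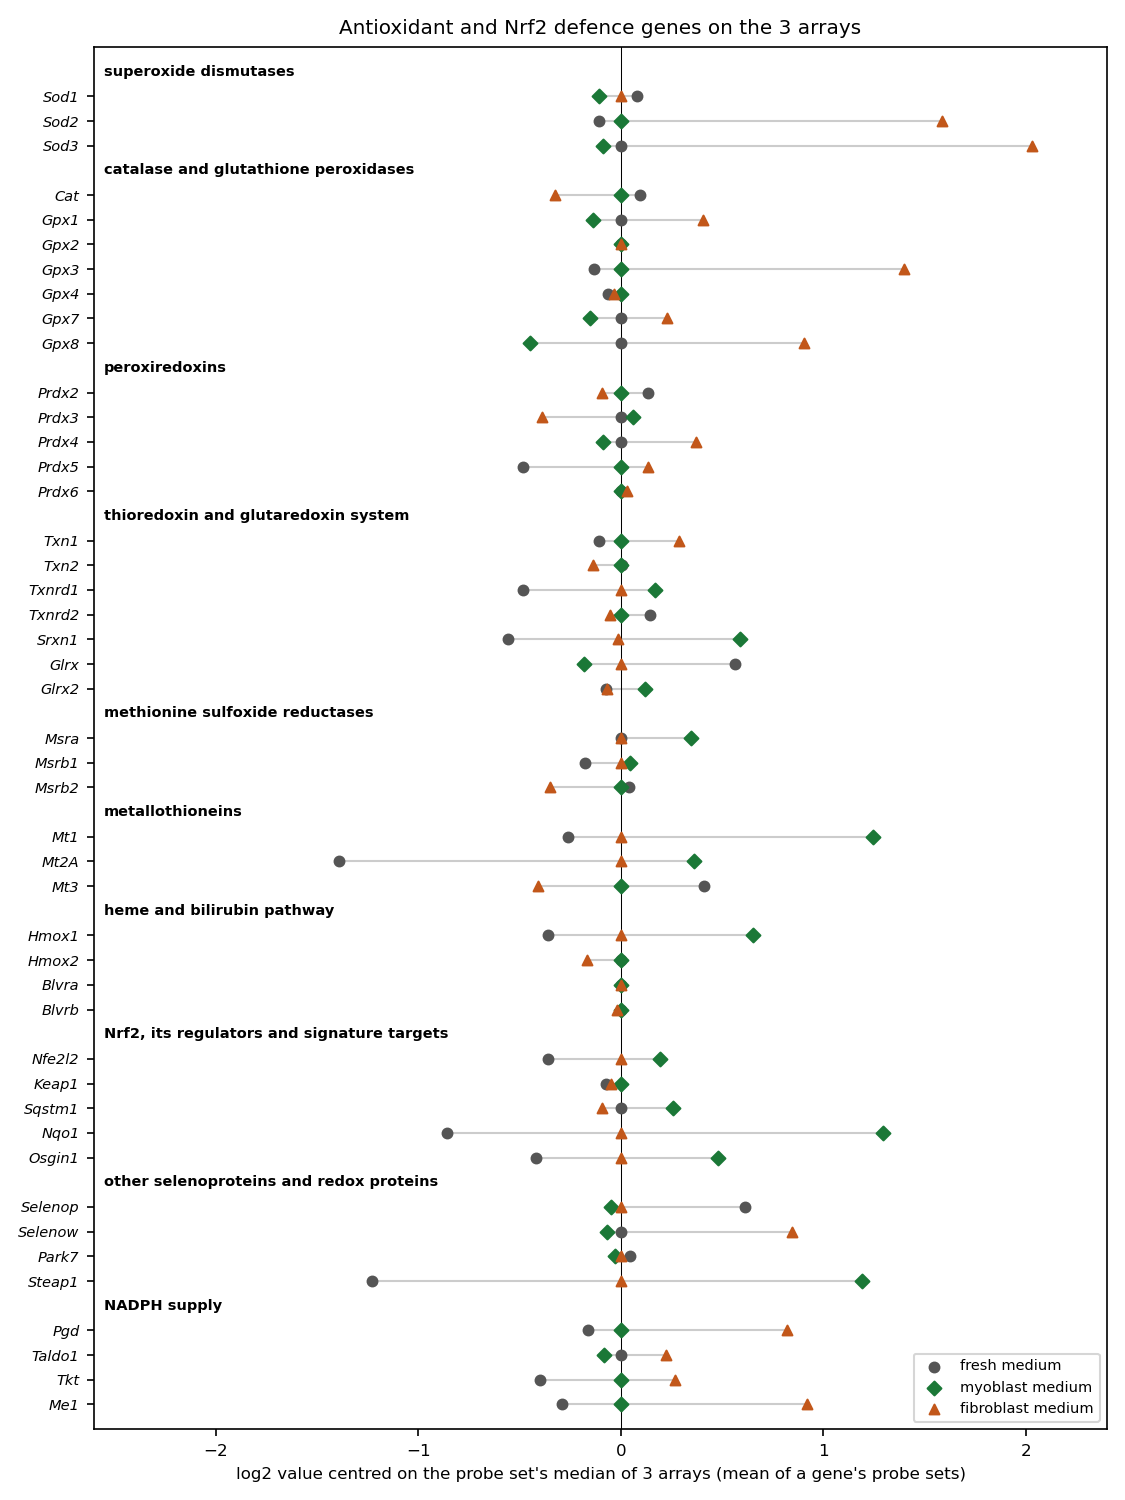
Centred log2 value of each of the 45 genes (mean of its probe sets, x axis) on the 3 arrays, grouped by role on the y axis, with 1 point per array and a grey line over the range. Nqo1, Steap1, Mt1 and Hmox1 have the myoblast array at the right and the fresh medium array at the left, while Sod2, Sod3 and Gpx3 have the fibroblast array alone at the right.

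Between the conditioned media, 3 genes were at least 2-fold higher in myoblast medium (Nqo1, Mt1 and Steap1) and 4 at least 2-fold lower (Sod3, Sod2, Gpx3 and Gpx8). These are 6.67% and 8.89% of the 45, where 2.12% and 3.94% of all genes passed. All 7, and none of the others, also exceeded the largest difference of the added controls, as did 5.81% of all genes. In total 11 of the 45 genes differed at least 2-fold in 1 comparison or more, and 23 differed by less than 0.5 in each of the 3 comparisons. Neither number was counted over all genes, so neither sets the 45 genes apart from the rest. Of the 11, 9 rest on a single probe set.

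**Figure D2:**
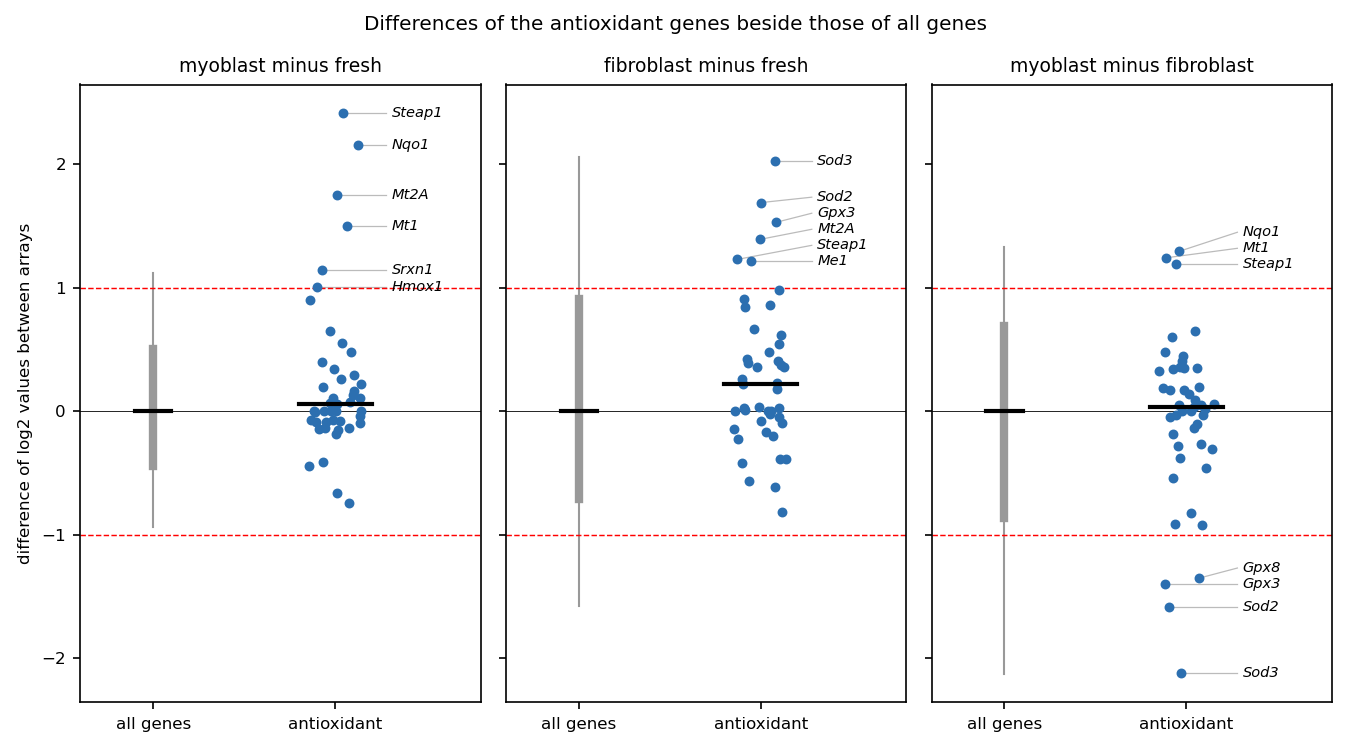
Differences of log2 values between arrays (y axis) for the 45 genes (blue points, black bar at the median) beside all 14218 genes, whose median is the black bar, whose 5th to 95th percentiles are the thick grey bar and whose 1st to 99th percentiles are the thin line. Dashed lines mark 2-fold, and the genes past it are named. The median of the 45 genes lies at 0.06, 0.22 and 0.04 in the 3 comparisons, against 0.00 for all genes.

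The fresh medium array was the lowest of the 3 for 20 of the 45 genes (44.44%), against 23.59% of all genes. The myoblast array was the highest for 16 (35.56%, against 23.73% of all genes) and the fibroblast array for 15 (33.33%, against 30.90%). Scaled to the added controls, the myoblast array was the highest for 9 of the 45 genes (against 6.55% of all genes) and the fresh medium array the lowest for 12 (against 9.47%). With 1 array per medium, these orders describe the arrays.

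Nqo1, Hmox1, Srxn1, Osgin1 and Txnrd1, known Nrf2 targets, and Nfe2l2 itself were highest on the myoblast array and lowest in fresh medium, while Me1, another target, was highest on the fibroblast array. With arrays scaled to the added controls, Nfe2l2 and Txnrd1 were at -0.02 and -0.05 for myoblast minus fibroblast medium, against 0.19 and 0.17 as deposited. Nqo1, which encodes an NADPH-dependent quinone reductase and is a standard readout of Nrf2, had a centred log2 value of -0.86 in fresh, 1.30 in myoblast and 0.00 in fibroblast medium. The difference was 2.15 (4.45-fold) for myoblast minus fresh medium, the 17th highest of 14218 genes, 0.86 for fibroblast minus fresh medium and 1.30 between the conditioned media. The control culture was low, the myoblast culture high, and the fibroblast culture lay between them. Nfe2l2 stood in the same order, at -0.36 in fresh, 0.00 in fibroblast and 0.19 in myoblast medium. Its differences from fresh medium, 0.55 and 0.36, lay within the range of the added controls. Osgin1, an oxidative stress-induced growth inhibitor gene, was at -0.42 in fresh, 0.48 in myoblast and 0.00 in fibroblast medium. Its difference of 0.90 for myoblast minus fresh medium fell just short of 2-fold but exceeded that range.

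Keap1 and Sqstm1, whose proteins act on Nrf2 stability in opposite ways, did not reach 2-fold. Keap1, the adaptor for Nrf2 degradation, had a mean difference of 0.07 for myoblast and 0.02 for fibroblast medium over 2 probe sets, and both values turn negative when the arrays are scaled to the added controls. Sqstm1, the autophagy receptor p62 that sequesters Keap1 and so favours Nrf2, had a mean of 0.26 for myoblast minus fresh medium, but its 4 probe sets ran from -0.13 to 0.68. In fibroblast medium its probe sets ranged from -0.48 to 0.13.

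Srxn1 and Txnrd1 belong to the thioredoxin system and are known Nrf2 targets. Srxn1 encodes sulfiredoxin, which repairs overoxidised peroxiredoxins. One of its probe sets was at -0.97 in fresh, 0.86 in myoblast and 0.00 in fibroblast medium. A second was at -0.71, 0.90 and 0.00 in the same order, but the third had no value on either the myoblast or the fresh medium array and was read as 0.00 on both. The mean was 1.14 (2.21-fold) for myoblast minus fresh medium and 0.54 for fibroblast minus fresh medium, so the size of the Srxn1 difference depends on the probe set. Txnrd1, the cytosolic thioredoxin reductase, had mean values of -0.48 in fresh, 0.17 in myoblast and 0.00 in fibroblast medium, a difference of 0.65 and 0.48 from fresh medium with both probe sets alike (0.58 and 0.73 in myoblast medium).

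**Figure D3:**
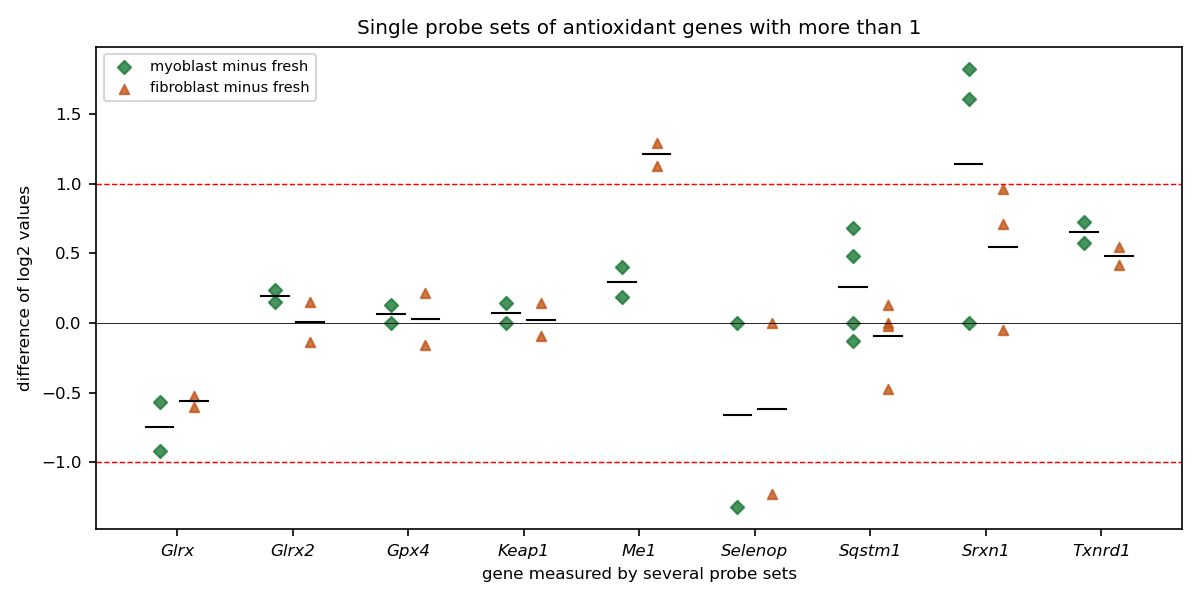
Differences of log2 values from fresh medium (y axis) for single probe sets of the 9 genes measured by more than 1 (x axis), with diamonds for myoblast and triangles for fibroblast medium and a black bar at the mean. Both probe sets of Me1, Txnrd1 and Glrx lie on the same side of 0, while Srxn1 and Selenop each have a probe set at or near 0 beside probe sets far from it.

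The other members of that system differed by less in size than the largest difference of the added controls, with Glrx as the exception. In myoblast minus fresh medium the added controls ran from -0.01 to 0.66, so Txnrd2, at -0.15, lay below all of them. Glrx, the cytosolic glutaredoxin that removes glutathione from protein thiols, was highest in fresh medium at 0.56, against -0.18 in myoblast and 0.00 in fibroblast medium. Its difference was -0.74 for myoblast and -0.56 for fibroblast minus fresh medium. Thioredoxin itself, Txn1, was 0.11 higher in myoblast and 0.39 higher in fibroblast medium. The mitochondrial forms differed little from fresh medium, with Txn2 at 0.00 and -0.14, Txnrd2 at -0.15 and -0.20 and Glrx2 at 0.19 and 0.01 in myoblast and fibroblast medium.

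Promoter sequence was examined for the response element through which Nrf2 acts. RefSeq promoter windows of assembly GRCr8, from 250 bases before to 50 bases after the start of the gene, were found for 40 of the 45 genes (50 windows, as some genes have several starts). The core antioxidant response element TGACNNNGC, on either strand, occurred in 12 of the 50 windows (24.0%), against 12.1% of all 33469 windows. Of these 12 matches, 2 (Me1 and Mt2A) overlapped TGACTCA, the AP-1 motif, which occurred in 4.63% of all windows, and 0 overlapped a metal response element. The windows of Nqo1, Srxn1 and Osgin1 held no match, and Hmox1 was not among the windows. Sequence outside the windows was not searched, so elements farther from the gene start would be missed. Those of Txnrd1 (chr7:22755855-22756154, minus strand) and of Me1 (chr8:96540195-96540494, minus strand) are shown with the match in capitals. It begins 78 bases before the gene start in Txnrd1, on the reverse strand, and 167 bases before it in Me1. These genes were chosen among Nrf2 targets that were higher in conditioned media, from those with a match. The Txnrd1 differences from fresh medium lay within the range of the added controls, and its other window held no match. The remaining matches were in Sod2, Prdx5, Nfe2l2, Mt1, Mt2A, Prdx4, Blvra, Gpx2, Hmox2 and Msrb2. Of these, Blvra and Gpx2 had no value on any array, and Hmox2 and Msrb2 were not higher in either conditioned medium.
Txnrd1: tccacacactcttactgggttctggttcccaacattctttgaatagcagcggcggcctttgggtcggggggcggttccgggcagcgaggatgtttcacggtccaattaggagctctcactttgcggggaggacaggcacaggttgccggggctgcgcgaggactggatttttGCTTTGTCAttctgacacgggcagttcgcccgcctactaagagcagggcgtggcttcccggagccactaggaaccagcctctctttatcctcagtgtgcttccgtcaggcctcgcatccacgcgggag
Me1: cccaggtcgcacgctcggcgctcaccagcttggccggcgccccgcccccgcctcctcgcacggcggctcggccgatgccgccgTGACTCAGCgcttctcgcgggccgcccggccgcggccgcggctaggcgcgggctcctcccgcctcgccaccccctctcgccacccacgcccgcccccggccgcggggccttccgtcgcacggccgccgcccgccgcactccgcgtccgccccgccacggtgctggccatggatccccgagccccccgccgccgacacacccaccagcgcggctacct

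Metallothioneins, small cysteine-rich proteins that bind zinc and copper and scavenge oxidants, differed by gene. Mt2A had a centred log2 value of -1.39 in fresh, 0.36 in myoblast and 0.00 in fibroblast medium. The control culture was far below both others, with differences of 1.75 (3.37-fold) for myoblast and 1.39 (2.62-fold) for fibroblast minus fresh medium and 0.36 between the conditioned media. Mt1 was at -0.26 in fresh, 1.24 in myoblast and 0.00 in fibroblast medium. Here the myoblast culture stood apart, 2.84-fold above fresh and 2.37-fold above fibroblast medium, while fibroblast and fresh medium differed by 0.26. Mt3, known mainly from brain, went the other way, at 0.41 in fresh, 0.00 in myoblast and -0.41 in fibroblast medium, or -0.41 and -0.82 from fresh medium. Each rests on 1 probe set, and because the family is similar in sequence, cross-hybridisation between its transcripts was not tested.

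The 3 metallothionein genes lie close together on chromosome 19, and their promoters are shown because Mt1 and Mt2A were both higher in myoblast medium and Mt3 was not. Metal response elements bind the zinc-sensing factor MTF-1. Their core, searched as TGCACNC or TGCGCNC on either strand and marked in capitals, occurred in 24.2% of all windows and in 24.0% of those of the 45 genes, and 3 or more matches in 1.68% of all windows. The windows are those at chr19:10832926-10833225, chr19:10838659-10838958 and chr19:10856031-10856330, all on the minus strand.
Mt1: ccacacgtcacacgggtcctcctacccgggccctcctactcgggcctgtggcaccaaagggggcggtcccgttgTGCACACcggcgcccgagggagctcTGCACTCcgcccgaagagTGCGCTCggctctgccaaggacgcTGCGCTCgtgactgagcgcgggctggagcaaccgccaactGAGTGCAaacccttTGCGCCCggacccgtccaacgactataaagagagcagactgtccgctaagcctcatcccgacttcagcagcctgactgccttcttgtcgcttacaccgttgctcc
Mt2A: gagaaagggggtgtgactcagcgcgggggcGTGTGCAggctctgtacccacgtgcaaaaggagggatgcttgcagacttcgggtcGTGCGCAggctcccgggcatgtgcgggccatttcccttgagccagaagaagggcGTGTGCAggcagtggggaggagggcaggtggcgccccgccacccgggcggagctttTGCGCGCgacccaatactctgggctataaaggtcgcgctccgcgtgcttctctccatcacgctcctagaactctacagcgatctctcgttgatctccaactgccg
Mt3: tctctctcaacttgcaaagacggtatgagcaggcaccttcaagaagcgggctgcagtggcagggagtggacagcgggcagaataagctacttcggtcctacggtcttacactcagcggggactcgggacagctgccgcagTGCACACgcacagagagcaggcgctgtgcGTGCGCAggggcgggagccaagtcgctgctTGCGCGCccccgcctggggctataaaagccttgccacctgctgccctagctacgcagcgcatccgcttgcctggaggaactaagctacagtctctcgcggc
The Mt1 window holds 6 matches, the Mt2A window 4 and the Mt3 window 3. Mt1 and Mt2A also hold 1 antioxidant response element each, which is not capitalised, and the Mt3 window holds none. A match shows that the letters are present and says nothing about binding in these cells. Among 24 zinc and copper handling genes, 0 were at least 2-fold different in myoblast medium, where few genes passed in all (1.35% higher and 0.844% lower). Mtf1 itself was at -0.08, and the zinc exporter Slc30a1, a classical MTF-1 target, was at -0.10 in myoblast and 0.21 in fibroblast medium. In fibroblast medium 4 of the 24 were at least 2-fold higher, against 4.26% of all genes. They were the zinc importers Slc39a8 at 1.20 and Slc39a1 at 1.05, the copper transporter Slc31a2 at 1.09 and ceruloplasmin (Cp) at 1.21.

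Heme oxygenase and biliverdin reductase convert heme to biliverdin and then to the antioxidant bilirubin. Hmox1, the inducible heme oxygenase and an Nrf2 target, had a centred log2 value of -0.36 in fresh, 0.65 in myoblast and 0.00 in fibroblast medium. Its difference for myoblast minus fresh medium was 1.01, only just past 2-fold, and 0.36 for fibroblast minus fresh medium. Scaled to the added controls, it and Srxn1 fell below 2-fold in myoblast medium. The constitutive Hmox2 was at 0.00 and -0.17 and Blvrb at 0.00 and -0.02 in the same comparisons. Both had a value on the fibroblast array only, and Blvra had no value on any array. Of 16 measured genes of heme synthesis and of heme or iron traffic, 0 were at least 2-fold higher in either medium and 1, Steap4, was at least 2-fold lower in myoblast medium.

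Steap1, of the STEAP family of metalloreductases, had the widest range of the 45 genes. It was at -1.23 in fresh, 1.19 in myoblast and 0.00 in fibroblast medium. The difference of 2.42 (5.35-fold) for myoblast minus fresh medium was the 11th highest of 14218 genes, and fibroblast minus fresh medium gave 1.23 (2.34-fold). The family did not move as 1 group: for myoblast minus fresh medium Steap2 was at 0.70, Steap3 at 0.50 and Steap4 at -1.09, and for fibroblast minus fresh medium they were at 0.45, 0.11 and -0.56.

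The superoxide dismutases separated the fibroblast culture from the others. Sod3, the extracellular enzyme, had a centred log2 value of 0.00 in fresh, -0.09 in myoblast and 2.03 in fibroblast medium. The difference was 2.03 (4.08-fold) for fibroblast minus fresh medium and -2.12 (4.34-fold) for myoblast minus fibroblast medium, the lowest value of the 45 genes. Sod2, the mitochondrial manganese enzyme and a known target of inflammatory signalling, was at -0.11 in fresh, 0.00 in myoblast and 1.58 in fibroblast medium, so fibroblast medium was higher by 1.69 (3.23-fold) than fresh medium. Fresh and myoblast medium lay close together for both genes. Sod1, the abundant cytosolic enzyme, differed by at most 0.19 between any of the arrays.

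Among peroxide-removing enzymes, Gpx3 and Gpx8 followed the same pattern. Gpx3, the secreted plasma glutathione peroxidase, was at -0.13 in fresh, 0.00 in myoblast and 1.40 in fibroblast medium, a difference of 1.53 (2.89-fold) for fibroblast minus fresh medium. Gpx8, an enzyme of the endoplasmic reticulum membrane, was at 0.00 in fresh, -0.45 in myoblast and 0.91 in fibroblast medium. Fibroblast medium was thus the highest for both, and myoblast minus fibroblast medium gave -1.40 and -1.35. Gpx7, a relative of Gpx8, stood in the same order with smaller differences (-0.15 for myoblast and 0.23 for fibroblast minus fresh medium), as did the ubiquitous Gpx1 (-0.14 and 0.40). Catalase (Cat) was lowest in fibroblast medium, at -0.42 from fresh medium. Gpx4, which protects membrane lipids and restrains ferroptosis, had means of 0.06 and 0.03 over 2 probe sets that disagreed in sign in fibroblast medium. Gpx2, the gastrointestinal form, had no value on any array.

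None of the 5 peroxiredoxin genes reached 2-fold. Prdx5 came nearest, at -0.48 in fresh, 0.00 in myoblast and 0.13 in fibroblast medium, or 0.48 and 0.61 from fresh medium. The mitochondrial Prdx3 was at -0.39 and the endoplasmic reticulum form Prdx4 at 0.37 for fibroblast minus fresh medium. Prdx2 was at -0.23 and Prdx6 at 0.03 in that comparison, and in myoblast medium these 4 lay between -0.14 and 0.06. Prdx6 had a value on the fibroblast array only. The methionine sulfoxide reductases, which repair oxidised methionine, also stayed under 2-fold. Msra was at 0.34 for myoblast minus fresh medium and 0.00 for fibroblast minus fresh medium, Msrb1 at 0.22 and 0.18 and the mitochondrial Msrb2 at -0.04 and -0.39. Msra had a value on the myoblast array only.

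Selenop and Selenow, further selenoprotein genes, differed in opposite ways. Selenop, the secreted carrier of selenium, was measured by 2 probe sets. The first was at 1.23 in fresh, -0.09 in myoblast and 0.00 in fibroblast medium, and the second had no value on any array. The first alone gives -1.32 for myoblast and -1.23 for fibroblast minus fresh medium, past 2-fold, and the mean of both gives -0.66 and -0.61. Selenow, a small muscle-enriched selenoprotein, was at 0.00 in fresh, -0.07 in myoblast and 0.84 in fibroblast medium. Park7, the oxidant sensor DJ-1, differed by at most 0.07 between any of the arrays. Of 17 other genes for selenoproteins and their synthesis, Lrp8, a receptor for selenoprotein P, was the only one at least 2-fold higher. It was at 1.14 in both media, but it had a value on the fresh medium array only, so both differences rest on that value. Pstk, a kinase needed to make selenocysteine, was the only one at least 2-fold lower, at -1.25 in fibroblast medium.

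The 4 genes listed under NADPH supply were highest in fibroblast medium. All 4 were above fresh medium there, with a median of 0.82, and this held under both other scalings of the arrays. Those scalings shift this comparison by at most 0.05, less than the smallest of the 4 differences, 0.22. Me1, cytosolic malic enzyme and an Nrf2 target, had mean values of -0.29 in fresh, 0.00 in myoblast and 0.92 in fibroblast medium. Its difference for fibroblast minus fresh medium was 1.21 (2.32-fold), with 1.13 and 1.30 for its single probe sets, and 0.29 for myoblast minus fresh medium. Pgd, of the oxidative pentose phosphate pathway, was at -0.16 in fresh, 0.00 in myoblast and 0.82 in fibroblast medium. Its difference of 0.98, on a single probe set, lay just under 2-fold. Tkt and Taldo1, of the non-oxidative branch of that pathway, were at 0.67 and 0.22 for fibroblast minus fresh medium, against 0.40 and -0.08 for myoblast minus fresh medium. Idh2, a mitochondrial source of NADPH that is not among the 45 genes, was at -1.09 in fibroblast medium. Other NADPH genes outside the 45 went both ways in fibroblast minus fresh medium. Nnt was at -0.85, Me3 at -0.13 and Me2 at -0.01, while Pgls was at 0.45, H6pd at 0.38 and Idh1 at 0.03.

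Other Nrf2 targets were not uniformly higher. Of 20 measured targets outside the 45 genes, 2 were higher and 1 was lower by 2-fold or more in myoblast medium, with a median of 0.03. Of all genes 1.35% were that much higher and 0.844% that much lower there, and in fibroblast medium 4.26% and 2.60%. The cystine transporter Slc7a11 was at 3.00 and Gclc, the catalytic subunit of the first enzyme of glutathione synthesis, at 1.13, while the efflux pump Abcc3 was at -1.20. In fibroblast medium 2 passed 2-fold upwards, Ephx1 at 1.34 and Ugdh at 1.14, and 5 passed it downwards (Abcc3 at -1.82, Gstm1 at -1.43, Aox1 at -1.37, Gsta4 at -1.34 and Nqo2 at -1.12), with a median of 0.05. Gsta4 and Gstm1 are glutathione transferases. Among 8 partners and repressors of Nrf2, the small Maf genes Maff and Mafk, whose proteins pair with Nrf2 on DNA, were at 1.53 and 1.46 in fibroblast and at -0.08 and 0.42 in myoblast medium. Bach1, the repressor of Hmox1, had no value on any array.

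**Figure D4:**
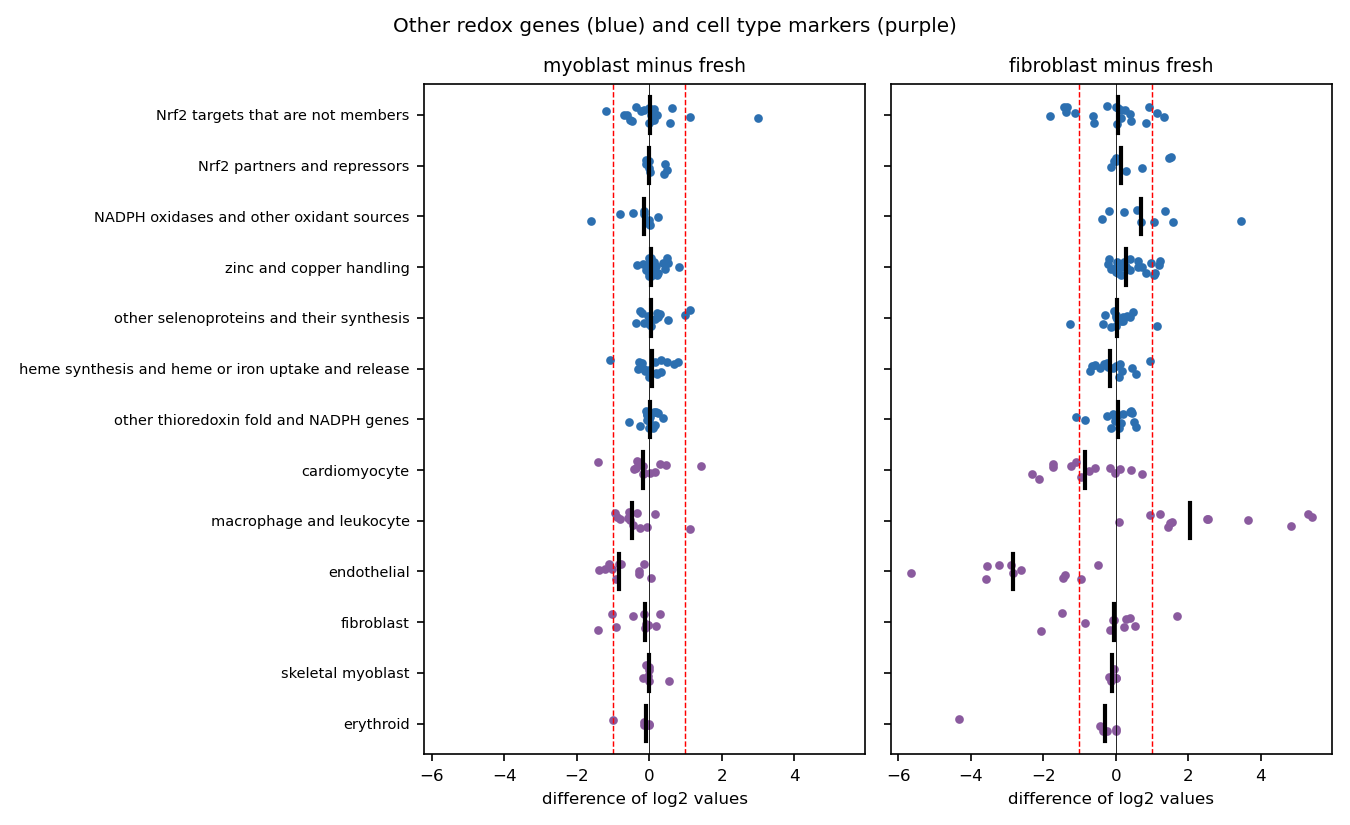
Differences of log2 values from fresh medium (x axis) for single genes of 7 other redox lists (blue) and 6 cell type marker lists (purple), with a black bar at each list's median and dashed lines at 2-fold, for myoblast (left) and fibroblast medium (right). Medians of the redox lists lie between -0.15 and 0.08 in myoblast medium, and in fibroblast medium the oxidant sources (0.71) and macrophage markers (2.04) lie to the right and the endothelial markers (-2.83) to the left.

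Oxidant-producing genes differed between the media along with leukocyte markers. Of 9 measured oxidant source genes, 4 were at least 2-fold higher in fibroblast medium, against 4.26% of all genes. They were Cybb, the catalytic subunit of the phagocyte NADPH oxidase, at 3.45 (11.0-fold), its cytosolic partners Ncf4 at 1.58 and Rac2 at 1.35, and Nox4 at 1.05. In myoblast medium none was 2-fold higher, Cybb was at -0.43, and xanthine dehydrogenase (Xdh) was at -1.60. On the same arrays, 10 of 12 leukocyte and macrophage markers passed 2-fold upwards in fibroblast medium (median 2.04, range 0.08 to 5.41), and 1 of 12 in myoblast medium (median -0.48). Endothelial markers were lower, 9 of 11 in fibroblast medium (median -2.83) and 4 of 11 in myoblast medium (median -0.84), and 6 of 14 cardiomyocyte markers were at least 2-fold lower in fibroblast medium (median -0.85). In myoblast medium the cardiomyocyte markers had a median of -0.16, with Myh7 at 1.43 and Mb at -1.42. These marker differences stand beside the higher Sod2, Sod3, Gpx3, Gpx8 and Me1 of the fibroblast array, and their part in those values was not tested. Summed marker levels cannot be formed from centred values. Of 7 measured skeletal myoblast markers, 0 were at least 2-fold different in either medium. Of 11 fibroblast markers, 2 were at least 2-fold lower in myoblast medium (Pdgfra at -1.42 and Fbln1 at -1.03, median of all 11 -0.12). In fibroblast medium Thy1 was at 1.69, Fbln1 at -2.07 and Pdgfra at -1.48, around a median of -0.06. Erythroid markers had medians of -0.09 and -0.30 over 6 genes, with Hbb, a haemoglobin gene, at -4.32 in fibroblast medium. Of 16 other thioredoxin fold and NADPH genes, Idh2 was the only one past 2-fold in either medium.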

How the data were processed

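Gene expression was measured on 3 Affymetrix 3' arrays (total RNA by RNeasy, 3' IVT Express labelling, per the labels' protocols), 1 each for fresh, myoblast-conditioned and fibroblast-conditioned medium. The deposited values are log2 values, with RMA listed among the tools in the submitters' processing notes. The program used for it and its version: not given in the sources used here. Of 31099 probe sets, 17117 had values on 2 arrays, always of opposite sign, 8002 on 1 array, 5980 on 0 and none on 3. Values on 2 arrays are what centring on each probe set's median leaves, and the centring was inferred from them. Probe sets with fewer values would need tied arrays, and the reason for their blanks is not given. All blank cells were read as 0. The log base is inferred from RMA. Probe sets were named by the platform annotation, which is dated: 20832 had 1 symbol, 436 had several and 9831 were unnamed here. Entrez IDs of 20764 matched the RefSeq table of GRCr8, and 0 symbols changed.

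Probe sets with the same single symbol were averaged to a gene, and 2 of the 45 genes had no value on any array. Differences were counted at 2-fold. The genes named are those at least 2-fold different in any comparison, all other members by role, and, of other lists, those past 2-fold. Mtf1, Slc30a1, Bach1, Steap2 and Steap3 were named for their role after their values were seen. The members and lists were chosen with earlier results of these data known. In all, 11 genes of the other redox lists had no probe set of their own symbol, nor did 5 markers, and they were not analysed here. The counting step was tested on simulated data for myoblast minus fresh medium over 14218 genes: all 200 genes changed by 4-fold were called, with 4 unchanged ones. The simulated noise was set in advance and even, without blank cells or shifts between arrays. The test therefore checks the counting and says nothing about the rate of false calls on these arrays. Alternatives were other summaries of probe sets, probe set filters, 2 scalings and thresholds of 1.5-fold and 3-fold. Promoter windows are from RefSeq. Python 3.11.15, NumPy 2.4.6, pandas 2.3.3 and Matplotlib 3.10.9 were used.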

Additional observations from a re-analysis of the deposited data

How the results depend on the processing

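No paired analysis was possible because each medium has 1 array. For the same reason no replicate could be left out. Values with no replicate were compared with the SD of the added controls. The 2-fold calls were the same genes with the median over probe sets. It can differ from the mean only for Srxn1 and Sqstm1, the genes with more than 2 probe sets. The filter for cross-hybridising probe sets, by the ID endings _s_at and _x_at, removed none of the 57 probe sets of the 45 genes. It therefore could not change their values. With the probe set of the widest range, or only probe sets with values on 2 arrays (38 of the 45 genes), 1 gene, Selenop, was at least 2-fold lower than fresh medium in both media, against 0. Centring on the median of nonblank values added Pgd in fibroblast medium. Centring on the added controls moved the median of the 45 genes in myoblast minus fresh medium to -0.19 from 0.06, took Hmox1 and Srxn1 below 2-fold there, and between the conditioned media gave 7 genes at least 2-fold lower in myoblast medium against 4, adding Me1, Pgd and Selenow, and took Steap1 below 2-fold. The shares of all genes moved too, to 0.668% higher and 1.75% lower for myoblast minus fresh medium and to 1.36% and 5.77% between the conditioned media. This scaling changed the sign of 9 genes in myoblast minus fresh medium, with differences of at most 0.22, 3 in fibroblast minus fresh medium and 11 between the conditioned media, all under 2-fold. At 1.5-fold, 8 genes were higher and 2 lower in myoblast medium (3.77% and 2.86% of all genes), 12 higher and 2 lower in fibroblast medium (9.09% and 6.97% of all genes), and 5 higher and 7 lower in myoblast than in fibroblast medium (6.65% and 8.34% of all genes). At 3-fold, 3 genes were higher in myoblast medium (Mt2A, Nqo1 and Steap1, against 0.380% of all genes) and 2 in fibroblast medium (Sod2 and Sod3, against 1.84%). Between the conditioned media 0 were higher and 1 (Sod3) lower in myoblast medium, against 0.591% and 1.79% of all genes. No called value changed sign under any of these settings, but few could have. The scalings shift a comparison by at most 0.25, and the thresholds leave the values unchanged. Of the 11 called genes, 9 rest on 1 probe set, which other summaries cannot change. Signal over background is unknown from centred values, so dim genes could not be set aside.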

Other observations

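Some probe sets name a gene of interest together with others and were not used above. The probe set annotated to Mt1f, Ttr and Mt1 was at -0.57 in fresh, 0.78 in myoblast and 0.00 in fibroblast medium, a difference of 1.35 for myoblast and 0.57 for fibroblast minus fresh medium. Those annotated to Cenps, Pgd, Kif1b and Cort together were at 0.22, -0.17, -0.01 and -0.16 for fibroblast minus fresh medium. They did not show the difference of the Pgd probe set used above, 0.98. Which of these genes they measure was not tested. The probe set of Prdx1 and its copy Prdx1l1 was at -0.01 for myoblast and 0.25 for fibroblast minus fresh medium. Those of the ferritin genes, which store iron and are Nrf2 targets, differed little: the Fth1 probe set was at -0.10 and 0.18, and that of Ftl1 and its copies at 0.14 and 0.19, in the same comparisons.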
